A study of Mus musculus with 50 samples.

Results

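The genes described here mostly encode enzymes that write or erase marks on chromatin or move nucleosomes, or subunits of their complexes. For short they are called enzyme genes below, though not all of them encode an enzyme. They were taken by name alone, as every gene symbol in the deposited count table that starts with Kmt2, Setd or Smarc, or with Hdac, Kdm or Kat and a digit, together with Chd1 to Chd9, Dnmt1, the Dnmt3 genes, Tet1 to Tet3, Ezh1, Ezh2, Ehmt1 and Ehmt2. The rule found 87 of the 24552 genes in the table, namely 11 Hdac, 8 Kat, 15 Kmt2 and Setd, 4 Ezh and Ehmt, 18 Kdm, 8 Dnmt and Tet, 14 Smarc and 9 Chd genes. Of these, 85 are protein-coding in the annotation, and the others are Dnmt3aos, an antisense RNA of Dnmt3a, and Smarca5-ps, a pseudogene of Smarca5. The annotation places 5 of the genes on the X chromosome and 1, Kdm5d, on the Y chromosome.

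RNA was sequenced from the nucleus accumbens (NAc), a part of the ventral striatum, of C57BL/6 mice (C57BL/6J in the methods text) that were 8 to 12 weeks old (the age is not given for the knockout libraries). In RiboTag (RT) mice, cells that express Cre add an HA epitope to the ribosomal protein Rpl22, so that immunoprecipitation with an HA antibody (IP) recovers the mRNA on ribosomes of those cells, while the input is RNA of the whole tissue punch. RT; D1-Cre mice tag cells with the dopamine receptor Drd1 and RT; D2-Cre mice cells with Drd2, where Cre is driven by regulatory sequence of the receptor gene on a bacterial artificial chromosome. The tag therefore marks any cell in which that sequence is active, and for Drd2 that includes cholinergic interneurons. Mice were either undefeated controls (Con), or met an aggressive CD1 male daily over up to 10 days (for 10 min a day by the sample labels and 5 min by the methods text), after which a social interaction test sorted them into resilient (Res) and susceptible (Sus) animals.

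There were 4 D1 Con, 4 D1 Res and 5 D1 Sus IP libraries, 5 D2 IP libraries of each of Con, Res and Sus, and 3 input libraries for each of these 6 groups. A further 4 IP libraries came from undefeated RT; Sirt1-floxed; D1-Cre males (labelled Sirt1-KO), which carry the same RT and D1-Cre alleles as the D1 Con mice they are compared with. The paper does not describe these 4 libraries. Genotype and any difference from D1 Con in age, preparation or sequencing run cannot be told apart. Each library pooled the punches of 2 mice, so the replicates of a group were separate pools and a p-value between such groups measures the spread between pools. An IP and an input with the same line, stress group and number may come from the same pool. The main model of IP against input treated them as independent, and a block for such pairs was fitted as an alternative. Counts that fell in genes summed to between 21591075 and 31009626 per IP library, between 18384265 and 28179940 per input and between 22174187 and 31785984 per Sirt1-KO library. Levels are given as counts per 1000000 (CPM) after scaling with TMM factors.

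Histone acetyltransferases (Kat) and histone deacetylases (Hdac) add and remove acetyl groups on histone tails, and acetylated histones mark open, active genes. Methyltransferases of the Kmt2 and Setd families, Ezh1 and Ezh2 of the Polycomb group, and Ehmt1 and Ehmt2, which deposit a repressive mark on histone H3, write histone methylation that demethylases of the Kdm family erase. Dnmt enzymes methylate cytosines in DNA and Tet enzymes oxidize that mark, while Smarc subunits of the BAF (SWI/SNF) and related complexes and the Chd proteins use ATP to slide or evict nucleosomes. In the NAc, histone acetylation and methylation have been studied for years as carriers of lasting responses to stress and to drugs of abuse.

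The 250 bases before the transcription start are shown for 4 genes on which the results below turn. Kdm4a, a demethylase of histone H3, and Hdac2, a class I deacetylase, had higher levels in IP than in input. Kmt2a, which methylates histone H3 at active promoters, had lower levels in IP, and Setd7, another lysine methyltransferase, was 1 of the few genes higher in D1 than in D2 IPs. The sequences are those of RefSeq for GRCm38.p6, read 5′ to 3′ on the strand of the gene, at chr4:118180044-118180293 (minus strand) for Kdm4a, chr10:36974294-36974543 (plus strand) for Hdac2, chr9:44881290-44881539 (minus strand) for Kmt2a and chr3:51560824-51561073 (minus strand) for Setd7. Capitals mark the letters GGGCGG, known as the GC box, or those of the CCAAT box, each read on either strand.
Kdm4a: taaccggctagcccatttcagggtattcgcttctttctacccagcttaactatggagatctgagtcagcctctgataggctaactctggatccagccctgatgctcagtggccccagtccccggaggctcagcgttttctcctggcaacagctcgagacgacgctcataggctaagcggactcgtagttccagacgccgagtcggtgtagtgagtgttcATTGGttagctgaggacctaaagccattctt
Hdac2: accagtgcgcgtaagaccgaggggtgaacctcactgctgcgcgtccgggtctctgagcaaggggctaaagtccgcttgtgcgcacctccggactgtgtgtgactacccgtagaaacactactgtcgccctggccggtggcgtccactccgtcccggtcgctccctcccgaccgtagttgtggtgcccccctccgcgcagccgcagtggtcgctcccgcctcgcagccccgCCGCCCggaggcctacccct
Kmt2a: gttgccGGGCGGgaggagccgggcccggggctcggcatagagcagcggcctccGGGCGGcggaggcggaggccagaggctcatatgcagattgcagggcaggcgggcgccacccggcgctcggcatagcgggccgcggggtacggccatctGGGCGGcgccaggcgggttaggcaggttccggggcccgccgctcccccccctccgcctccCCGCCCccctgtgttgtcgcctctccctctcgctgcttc
Setd7: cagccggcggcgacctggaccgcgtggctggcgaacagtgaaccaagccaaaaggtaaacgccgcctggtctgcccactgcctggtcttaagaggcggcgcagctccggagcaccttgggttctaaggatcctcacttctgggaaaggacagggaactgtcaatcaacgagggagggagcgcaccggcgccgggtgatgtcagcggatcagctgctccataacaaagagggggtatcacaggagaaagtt

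The Kmt2a promoter held 4 GC boxes and that of Hdac2 held 1. That of Kdm4a held 1 CCAAT box, and that of Setd7 held no match to either set of letters. A promoter entry (250 bases before the start to 50 after it) was found for 69 of the 87 genes, with 95 promoters between them. The letters GGGCGG on either strand stood in 62.1% of these promoters, against 32.7% of all 32851 promoters in the RefSeq table. That table covers 27025 genes, whether or not expressed in this tissue, and was not matched to the group for expression. The median promoter of the group held 19 CpG dinucleotides and 63.6% G and C bases, against 6 and 52.4% in all promoters. The letters CCAAT were found in 33.7% of them against 33.8% of all promoters. The TATA box, searched as TATAAA, was found in 4.21% against 12.4%. The cyclic AMP response element, searched as TGACGTCA, was found in 0 against 1.55%. Both strands were searched, and none of these sets of letters holds another. The letters GGGCGG stood in 66.7% of the 36 promoters of genes higher in IP than in input in both lines, in 51.9% of the 27 of genes lower in IP in both lines and in 63.6% of the 44 of genes lower in D1 than in D2 IPs.

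The labelled cell types were checked against marker genes. The summed level of 4 markers of D1 medium spiny neurons (MSNs; Drd1, Pdyn, Tac1 and Chrm4) was 1120 to 1578 CPM in D1 IPs and 395 to 649 in D2 IPs, and that of 4 D2 markers (Drd2, Adora2a, Gpr6 and Penk) 2096 to 3527 in D1 IPs and 5757 to 8111 in D2 IPs. Summed over 6 markers each, astrocyte genes reached 38.5 to 96.1 CPM in IPs against 776 to 997 in inputs, oligodendrocyte genes 408 to 788 against 3389 to 5349, and microglia genes 9.84 to 19.9 against 212 to 271. The share of reads that fell in no gene was 18.02% to 28.3% in IPs and 35.9% to 40.0% in inputs, and the nuclear RNA Malat1 stood at 465 to 3167 CPM in IPs and 3311 to 6838 in inputs. The 4 IP libraries numbered 5 (1 D1 and 3 D2) stood apart, with 24.5% to 28.3% of reads outside genes and 1734 to 3167 CPM of Malat1, against 18.02% to 27.04% and 465 to 1282 CPM in the other 24 IPs, and results that rest on them are also given without them.

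To compare genes with each other, CPM was divided by the length of the exons in kb and averaged over the 28 IP libraries. The highest level was that of Chd3, a remodelling ATPase of the NuRD complex, at 142 ± 8.26 CPM per kb (SD, n = 28), and its relative Chd4 followed at 54 ± 4.21 and Chd5, the neuronal member, at 36.9 ± 5.11. Chd7, mutated in CHARGE syndrome, was the lowest Chd gene at 1.79 ± 0.524 CPM per kb. Among the deacetylases, Hdac11, the class IV enzyme, was highest at 67.5 ± 2.84 CPM per kb, ahead of Hdac2 at 34.3 ± 1.98, and Hdac10, a polyamine deacetylase, was lowest at 1.09 ± 0.222. The BAF subunit genes Smarcd1 at 66.1 ± 3.32 CPM per kb and Smarcc2 at 63.2 ± 3.44 differed by less than their SDs, and the helicase gene Smarcad1 was the lowest protein-coding Smarc gene at 2.3 ± 0.224.

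Among methyltransferases, Ehmt2, which encodes the enzyme G9a, stood at 47.4 ± 2.16 CPM per kb and Setd3, an actin histidine methyltransferase, at 34.6 ± 1.07, while Ezh2 reached 0.728 ± 0.201 and its paralog Ezh1, the form known from non-dividing cells, 9.74 ± 0.553. Kat2a, the catalytic subunit of the SAGA complex, was the highest acetyltransferase gene at 27.6 ± 1.46 CPM per kb and its paralog Kat2b the lowest at 3.55 ± 0.504. Kdm4b at 23.6 ± 1.91 and Kdm4a at 23.5 ± 3.81 CPM per kb led the demethylases and could not be ordered, and Kdm4d, known from testis, was lowest at 0.711 ± 0.169. Of the DNA methylation genes, Dnmt1, the maintenance methyltransferase, reached 10.5 ± 0.61 CPM per kb, the de novo enzyme Dnmt3a 8.94 ± 0.83, and Tet3, Tet2 and Tet1 stood in that order at 4.66 ± 0.57, 2.2 ± 0.51 and 0.861 ± 0.108. Dnmt3b, Dnmt3l, Dnmt3aos, Setdb2 and Smarca5-ps were each under 0.1 CPM per kb. Of these 5, Dnmt3b was tested only where inputs were in the model, and the other 4 were too low to be tested in any comparison. The IP and input model thus tested 83 of the 87 genes and the IP model 82. Whether reads were counted by strand is not given in the sources used here, so reads of Dnmt3a and Dnmt3aos may not be separated, and Smarca5-ps may share reads with Smarca5.

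**Figure D1:**
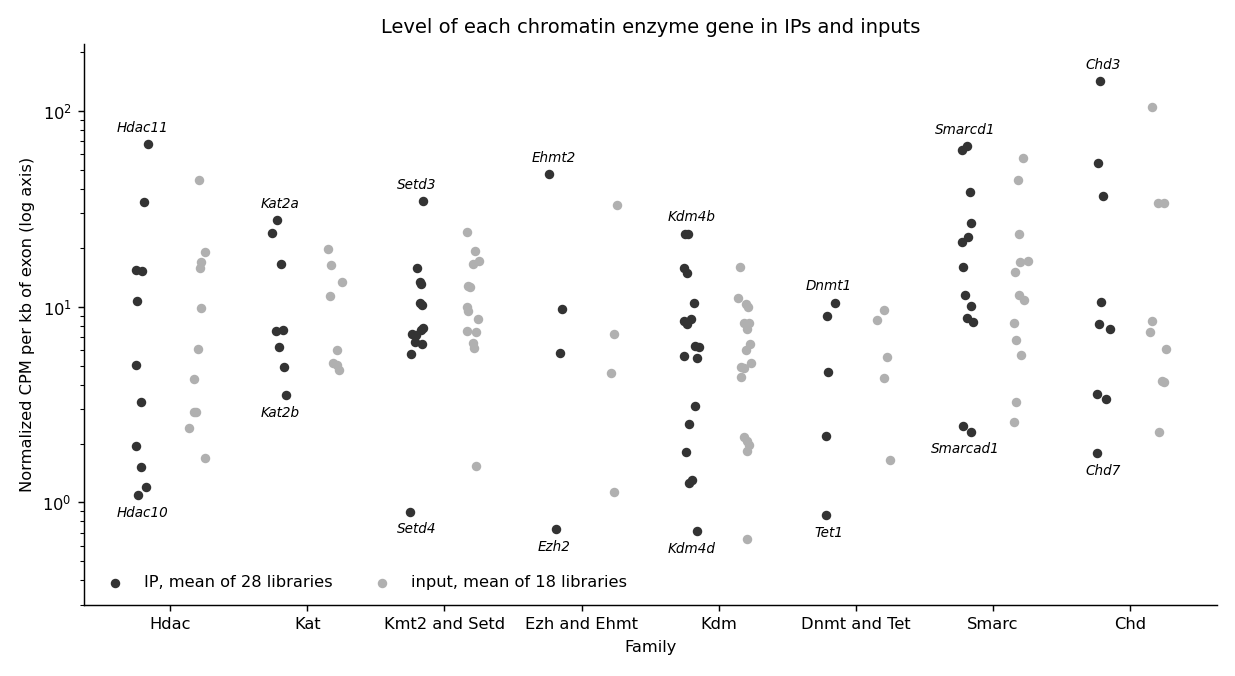
Level of each tested chromatin enzyme gene per kb of exon by family, in normalized CPM per kb on a log axis, with dark points for the mean of the 28 IP libraries and grey points for the mean of the 18 inputs. The gene highest and the gene lowest in the IPs is named in each family, with Chd3 at 142 and Kdm4d at 0.711 CPM per kb near the ends of the range.

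The first comparison asked how the mRNA of each enzyme on ribosomes of the cells tagged in each line compared with RNA of the whole tissue. In D1, 70 of the 83 tested genes differed between IP and input (quasi-likelihood test of edgeR, Benjamini-Hochberg adjusted p below 0.05; 36 higher and 34 lower in IP), against 81.9% of all genes tested (39.2% higher and 42.7% lower). In D2, 71 of 83 differed (39 higher and 32 lower), against 82.7% of all genes (37.8% higher and 44.9% lower). Without the libraries numbered 5 the counts were 71 and 72. Of the 83 genes, 22 in D1 and 18 in D2 also differed by over 1.5-fold, against 43.1% and 43.6% of all genes. The median log2 fold change of the group was 0.03 in D1 and 0.07 in D2, and that over all genes tested was -0.04 and -0.08. In 64 genes both lines passed the test, 34 of them higher and 28 lower in IP in both, and 2 with opposite directions, Chd5 and Kdm3a (the latter named after its values were seen). An IP and an input hold different cells, and an input also holds nuclear and unspliced RNA that is not on ribosomes. The paper reports more intronic reads in inputs than in IPs. Fewer cells of a type, less RNA per cell and less of that RNA on ribosomes therefore cannot be told apart in this comparison. Without scaling factors the median over all genes moved from -0.04 to -0.23 in D1 and from -0.08 to -0.21 in D2, the median of the group to -0.17 and -0.05, and the split of the group to 28 higher and 43 lower in D1 and 35 higher and 37 lower in D2.

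Of 13 tested Smarc genes, 9 were higher in IP in D1 and 9 in D2, with 4 and 3 lower. Of 8 Kat genes 5 were higher in each line, of 4 Ezh and Ehmt genes 3 in each line, and of 18 Kdm genes 8 in D1 and 11 in D2, with 5 and 3 lower. Of 14 Kmt2 and Setd genes, 8 were lower in IP in D1 and 9 in D2, with 2 and 3 higher, and of 6 Dnmt and Tet genes 5 and 4 were lower and 1, Dnmt1, higher. The Hdac genes divided into 3 higher and 5 lower in D1 and 3 higher and 7 lower in D2, and the Chd genes into 5 and 3 in D1 and 4 and 3 in D2. No test was made of these families against other genes.

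Kdm4a had the largest difference of the genes higher in IP. Its level was 100 to 138 CPM (median 117) in the 13 D1 IPs and 133 to 198 (median 148) in the 15 D2 IPs, against 53.3 to 63.6 (median 60) in D1 inputs and 54.5 to 65.5 (median 59.2) in D2 inputs. IPs and inputs of a line did not overlap, and the log2 fold change was 0.94 ± 0.06 (SE) in D1 and 1.32 ± 0.06 in D2 (edgeR adjusted p = 6.73e-19 and 5.51e-24). Smarcb1, a core subunit of the BAF complex, stood at 83.7 to 101 CPM in D1 IPs and 85.3 to 104 in D2 IPs, against 41.8 to 50.7 and 40.2 to 48.7 in the inputs. Its log2 fold change was 0.93 ± 0.03 in D1 and 1.03 ± 0.03 in D2, again with no overlap. Hdac2 was at 140 to 167 CPM in D1 IPs (median 149) and 144 to 175 in D2 IPs (median 156), while no input library passed 79.4 CPM, and its log2 fold change was 0.95 ± 0.04 in D1 and 1.00 ± 0.03 in D2.

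The remaining 5 of the 8 genes named on this side completed the largest differences toward the IPs. Smarca4 and Smarca2, the alternative ATPases of the BAF complex known as BRG1 and BRM, were higher in IP by a log2 fold change of 0.67 ± 0.03 and 0.63 ± 0.03 in D1 and of 0.68 ± 0.03 and 0.64 ± 0.03 in D2. Chd4 was higher by 0.55 ± 0.04 in D1 and 0.72 ± 0.04 in D2. Kat8, an acetyltransferase of histone H4, was higher by 0.62 ± 0.05 and 0.66 ± 0.05, and Kdm1a, the flavin-dependent demethylase LSD1, by 0.65 ± 0.03 and 0.58 ± 0.03. The largest of their 10 adjusted p-values (edgeR) was 9.78e-15, that of Kat8 in D1. All 16 values of these genes with Kdm4a, Smarcb1 and Hdac2 kept the call when any of the 46 libraries was left out.

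Toward the inputs, Hdac7, a class IIa deacetylase known from endothelial cells and thymocytes, differed most. It stood at 4.29 to 9.65 CPM (median 6.92) in D1 IPs and 6.74 to 13.7 (median 8.32) in D2 IPs, against 26.1 to 32.7 (median 28.2) and 26.2 to 32 (median 27.8) in the inputs, and its log2 fold change was -2.12 ± 0.11 in D1 and -1.68 ± 0.11 in D2. Kmt2a, far more abundant, was at 91.1 to 139 CPM (median 103) in D1 IPs and 109 to 204 (median 140) in D2 IPs, against 303 to 355 (median 317) and 294 to 358 (median 325) in inputs. For Kmt2a the log2 fold change was -1.64 ± 0.08 in D1 and -1.21 ± 0.07 in D2 (edgeR adjusted p = 2.67e-22 and 1.58e-18), and for neither gene did an IP library reach the range of its inputs. Hdac10 was lower in IP by a log2 fold change of -1.47 ± 0.11 in D1 and -1.42 ± 0.10 in D2, with levels of 2.21 to 5.03 CPM over the IPs and 7.08 to 12.8 over the inputs, again without overlap.

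The DNA demethylation genes Tet2 and Tet1 were lower in IP too. Tet2 was at 24.8 to 41.3 CPM in D1 IPs and 31.8 to 58.7 in D2 IPs, below its inputs at 63.4 to 80.4, with a log2 fold change of -1.28 ± 0.08 in D1 and -0.83 ± 0.08 in D2, and Tet1 followed at -1.04 ± 0.06 and -0.93 ± 0.05. Kat6a, an acetyltransferase also known as MOZ, was lower by -1.11 ± 0.07 in D1 and -0.75 ± 0.07 in D2, and Setd4 by -1.09 ± 0.10 and -0.60 ± 0.09. Dnmt3b had a fitted log2 fold change of -1.94 ± 0.35 in D1 and -1.18 ± 0.31 in D2, at levels of 0 to 0.268 CPM in D1 IPs and 0.0349 to 0.753 in D2 IPs against 0.221 to 1.24 in inputs, so the ranges overlapped and the fit rests on few reads. The calls of the 8 genes lower in IP, from Hdac7 to Dnmt3b, held in both lines when any 1 of the 46 libraries was left out. Summed markers of astrocytes, oligodendrocytes and microglia were lower in the IPs by the ranges given above, and the part of those cells in these differences was not tested. The part of nuclear and unspliced RNA in the inputs was not tested either.

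Other genes often studied in the accumbens differed by less. The class I deacetylases Hdac1 and Hdac3 were lower in IP than in input, by a log2 fold change of -0.35 ± 0.05 and -0.32 ± 0.03 in D1 and of -0.28 ± 0.05 and -0.35 ± 0.03 in D2, unlike Hdac2. Hdac4, a class IIa deacetylase, was higher in D1 (0.19 ± 0.05) and had a value of 0.09 ± 0.05 in D2 that did not pass, and Hdac5 was lower in D2 (-0.16 ± 0.03) and had one of -0.02 ± 0.03 in D1 that did not pass. The methyltransferases of the repressive histone H3 mark divided, with Ehmt1 (0.27 ± 0.04 in D1 and 0.31 ± 0.04 in D2) and Ehmt2 (0.42 ± 0.03 and 0.53 ± 0.03) higher in IP and Setdb1 (-0.51 ± 0.04 and -0.36 ± 0.04) lower. Dnmt1 was higher (0.27 ± 0.04 and 0.25 ± 0.04), Tet3 lower (-0.39 ± 0.06 and -0.20 ± 0.06) and Dnmt3a lower in D1 (-0.25 ± 0.04) with -0.05 ± 0.04 in D2, which did not pass. Kdm5c, a demethylase mutated in intellectual disability, was higher (0.31 ± 0.03 and 0.44 ± 0.03), while Ezh2 (-0.98 ± 0.12 and -0.44 ± 0.11) and the ISWI-type remodeller Smarca5 (-0.17 ± 0.03 and -0.12 ± 0.03) were lower.

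**Figure D2:**
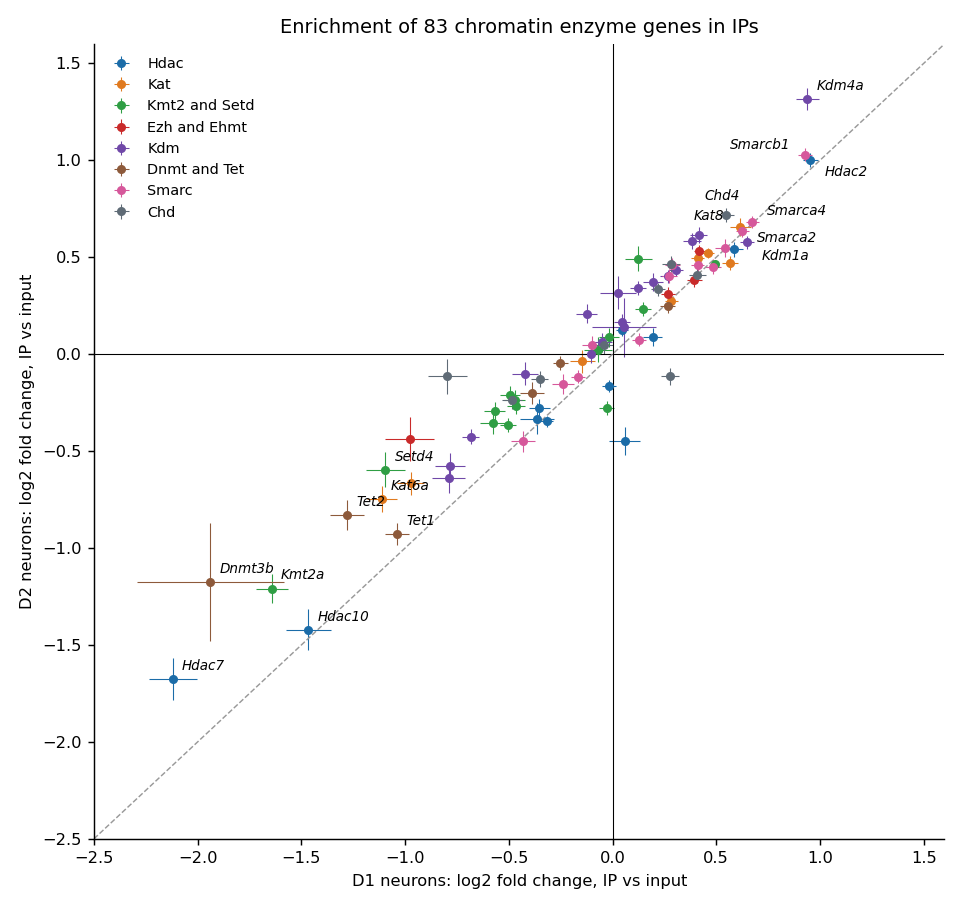
Log2 fold change of IP against input for the 83 tested genes, with D1 on the horizontal and D2 on the vertical axis, colours for the 8 families, bars for the SE and a dashed line where both lines are equal. Points run from Hdac7 at -2.12 and -1.68 to Kdm4a at 0.94 and 1.32, and Chd5, at 0.28 in D1 and -0.11 in D2, is a grey point below the horizontal axis.

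The IP difference itself was compared between the lines. The D1 difference of IP from input minus that of D2 passed an adjusted p under 0.05 (edgeR) in 35 of 83 genes, 4 with a higher and 31 with a lower value in D1, against 25.5% of all genes (13.7% higher and 11.8% lower). The Kdm genes gave 10 of the 31 lower values and the Kmt2 and Setd genes 8, and the 4 higher values were those of Chd5, Hdac9, Setd7 and Hdac5. These values share their IP libraries with the direct comparison of D1 with D2 IPs that follows.

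D1 and D2 IPs were then compared directly, to ask which enzymes differ between the cells tagged in the D1-Cre and D2-Cre lines. Of 82 tested genes 47 differed (edgeR, adjusted p below 0.05), against 40.8% of all genes tested. Of these, 43 were lower and 4 higher in D1 than in D2, while over all genes 21.3% were lower and 19.6% higher. Chd7 alone also passed 1.5-fold, which 7.66% of all genes did. The median log2 fold change of D1 against D2 was -0.13 over the 82 genes and -0.02 over all genes. By family, 12 of 18 Kdm, 9 of 14 Kmt2 and Setd, 7 of 9 Chd, 4 of 8 Kat, 4 of 13 Smarc, 4 of 5 Dnmt and Tet, 2 of 4 Ezh and Ehmt and 1 of 11 Hdac genes were lower in D1, and the higher genes were Chd5, Setd7, Hdac9 and Hdac5.

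Chd5 is expressed mainly in neurons, and it had the smallest p of the 4 genes higher in D1. Its level was 331 to 446 CPM (median 395) in the 13 D1 IPs and 280 to 352 (median 309) in the 15 D2 IPs, and D1 exceeded D2 by 0.31 ± 0.04 on the log2 scale (edgeR adjusted p = 1.24e-07). Only the ends of these ranges overlapped. Hdac9, a class IIa deacetylase, was at 18 to 29.3 CPM (median 26.5) in D1 and 17.2 to 23.1 (median 18.7) in D2, a difference of 0.43 ± 0.05 on the log2 scale (edgeR adjusted p = 2.25e-07). Setd7 was at 167 to 202 CPM (median 182) in D1 and 139 to 168 (median 159) in D2, and its log2 fold change was 0.19 ± 0.03 (edgeR adjusted p = 8.47e-06). For Setd7 the ranges met only at their ends, and for Hdac9 the 1 D1 library within the D2 range was D1 Con 1, at 18 CPM. Hdac5, another class IIa deacetylase with a known role in NAc responses to cocaine, differed least of the 4, at 125 to 167 CPM in D1 and 117 to 138 in D2 with broad overlap (0.12 ± 0.03 on the log2 scale, edgeR adjusted p = 0.00249).

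Chd7 differed most of the genes lower in D1. It was at 14.8 to 23.3 CPM (median 17.7) in D1 IPs and 22.7 to 42.2 (median 27.6) in D2 IPs, and its log2 fold change was -0.68 ± 0.10 (edgeR adjusted p = 1.8e-06). Kdm4a, at 100 to 138 CPM in D1 and 133 to 198 in D2, differed by -0.39 ± 0.05 on the log2 scale (edgeR adjusted p = 5.41e-07). For both genes the ranges met only at their ends. Setd2, which marks transcribed gene bodies on histone H3, was at 97.9 to 152 CPM (median 116) in D1 and 130 to 212 (median 152) in D2, with a log2 fold change of -0.41 ± 0.07, and Kmt2a had one of -0.46 ± 0.08 and Tet2 one of -0.49 ± 0.08, each with ranges that overlapped by more. Kdm5a and Kdm5b, which remove the promoter mark that Kmt2 enzymes write, differed by -0.23 ± 0.04 and -0.18 ± 0.03, and Kdm6b, which removes the Polycomb mark, by -0.34 ± 0.06. Chd1 differed by -0.24 ± 0.04 and Dnmt3a by -0.21 ± 0.04. The largest adjusted p (edgeR) of these 10 genes was 4.45e-05, and the calls of all 14 named genes held when any 1 of the 28 IP libraries was left out. The sizes depended on the setting. Over the 9 other settings tried, the log2 fold change ran from -0.45 to -0.27 for Kmt2a and from -0.48 to -0.30 for Tet2. It ran from -0.47 to -0.25 for Setd2 and from -0.77 to -0.45 for Chd7.

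**Figure D3:**
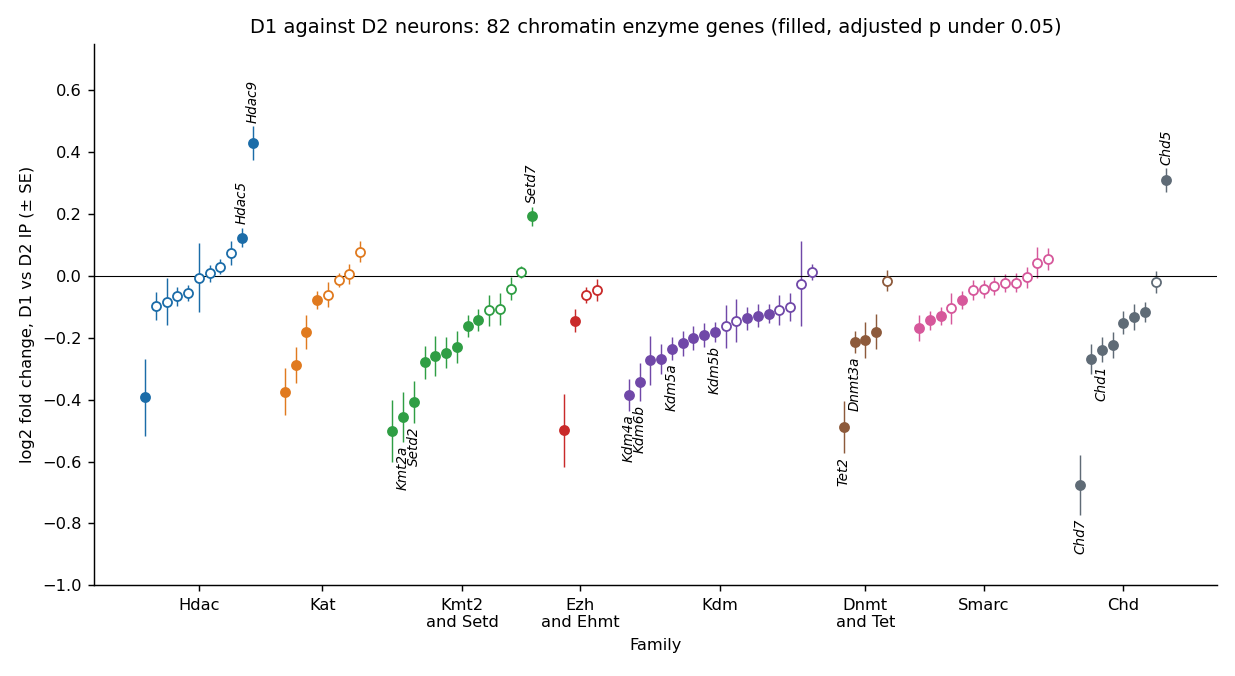
Log2 fold change of D1 against D2 IPs for the 82 tested genes by family, with filled points for an adjusted p under 0.05, bars for the SE and the named genes labelled. Points of the Kdm, Kmt2 and Setd and Chd families lie mostly below 0, Hdac9 at 0.43 and Chd5 at 0.31 lie highest and Chd7 at -0.68 lowest.

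**Figure D4:**
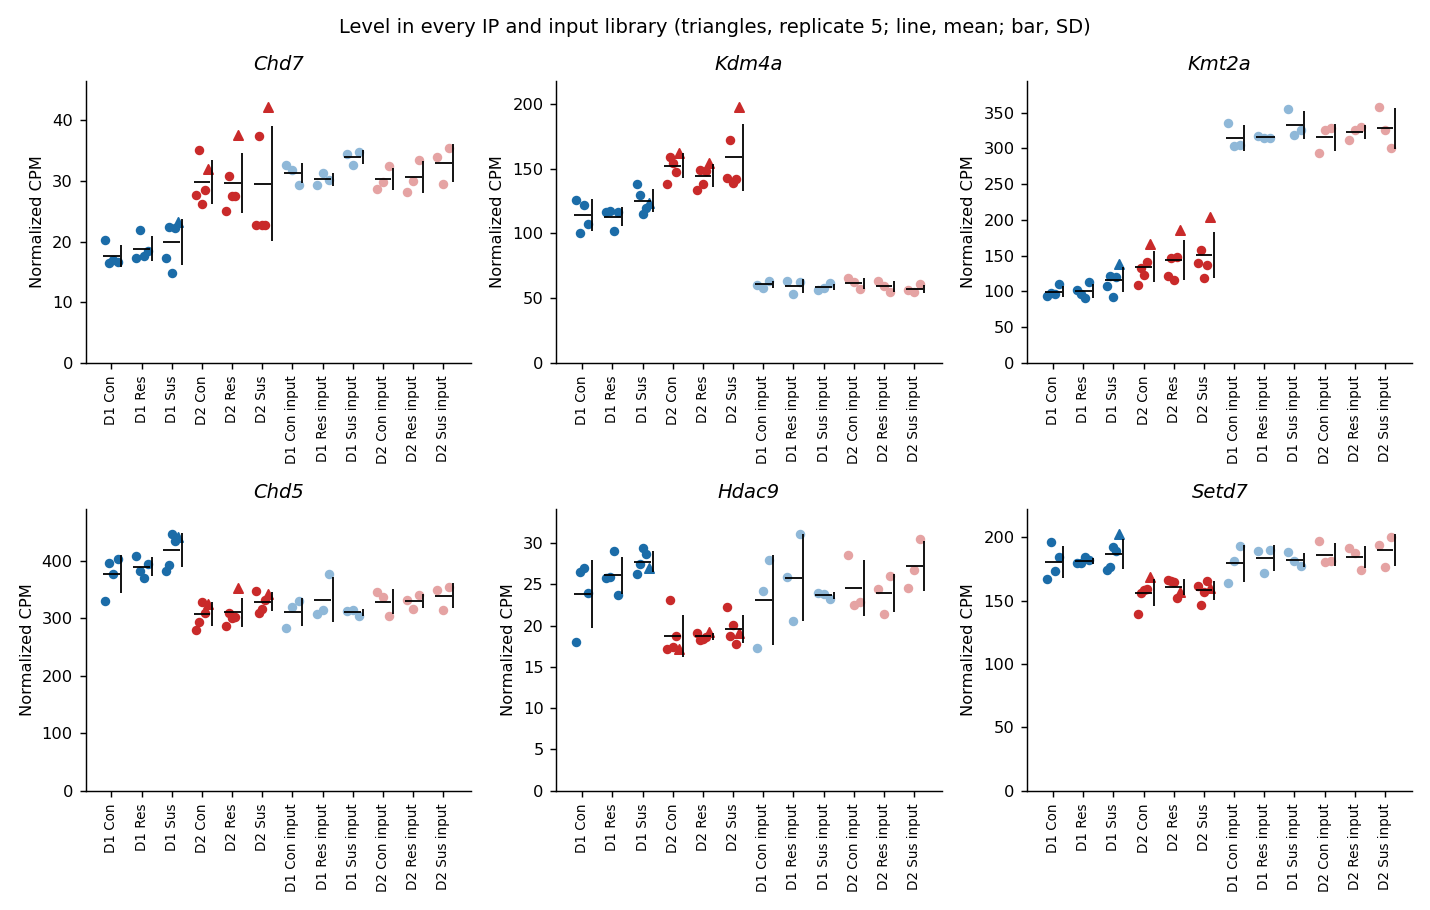
Level in normalized CPM of Chd7, Kdm4a, Kmt2a, Chd5, Hdac9 and Setd7 in each IP library and input by line and stress group, with triangles for replicate 5, a line at each mean and a bar for the SD. D1 IPs lie mostly below D2 IPs for Chd7, Kdm4a and Kmt2a and mostly above them for Chd5, Hdac9 and Setd7, while the inputs of both lines cover similar ranges.

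The difference between D1 and D2 IPs was present within each stress group. In Con alone 24 of 82 genes passed an adjusted p under 0.05 (edgeR; 3 higher and 21 lower in D1, against 14% of all genes), in Res alone 27 (4 and 23, against 17.5%) and in Sus alone 21 (3 and 18, against 17.6%). Chd7 had a log2 fold change of D1 against D2 of -0.77 ± 0.17 in Con, -0.67 ± 0.17 in Res and -0.58 ± 0.16 in Sus. Chd5 had one of 0.28 ± 0.07, 0.31 ± 0.07 and 0.33 ± 0.06, and Hdac9 one of 0.34 ± 0.10, 0.47 ± 0.10 and 0.49 ± 0.09. The call of Hdac5 was lost in Con alone and in Sus alone (edgeR adjusted p = 0.251 and 0.527). Whether these values differ between the stress groups is the interaction given further on.

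Several measures of the libraries differed between D1 and D2 IPs. The share of reads outside genes was 18.02% to 24.5% (median 20.03%) in D1 IPs and 18.6% to 28.3% (median 21.7%) in D2 IPs, and Malat1 was at 465 to 1734 CPM (median 664) and 711 to 3167 CPM (median 1002). Slc17a7, the vesicular glutamate transporter of cortical neurons, was at 322 to 1152 CPM in D1 IPs and 14.1 to 245 in D2 IPs, the summed level of 4 cortical excitatory neuron markers at 387 to 1372 and 21.6 to 291, and Chat, which marks cholinergic interneurons, at 1.59 to 6.74 and 16.9 to 34.6. The median of Slc17a7 was 624 CPM in D1 IPs against 314 in D1 inputs, and 156 in D2 IPs against 520 in D2 inputs. That of Chat was 2.01 CPM in D1 IPs against 15.9 in D1 inputs, and 22.8 in D2 IPs against 12.4 in D2 inputs. The comparison of D1 with D2 IPs is therefore not one of MSNs alone. Within the D1 IPs and within the D2 IPs, the share of reads outside genes had a correlation of 0.79 and 0.71 with Kmt2a. The correlations were 0.75 and 0.70 for Tet2, 0.63 and 0.85 for Setd2 and 0.62 and 0.84 for Chd7. They were 0.22 and 0.39 for Kdm5a and 0.32 and 0.30 for Kdm5b. With the share of reads outside genes as a covariate, 38 of 82 genes passed (4 higher and 34 lower, against 33.6% of all genes), and the median log2 fold change was -0.10. Without the libraries numbered 5, 45 passed (4 higher and 41 lower, against 38.4%). The part of the other cell types in these differences was not tested.

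The enzyme genes are long, and length moved with the direction. Their exons had a median of 7.8 kb, against 4.52 kb for other genes in the model. In the longest tercile of exon length, 36 of 54 enzyme genes were lower in D1 (66.7%) and 4 higher, with a median log2 fold change of -0.16, while 29.6% of 4619 other genes were lower, with a median of -0.04. In the middle tercile 7 of 23 enzyme genes were lower (30.4%, against 20.3% of the others), and in the shortest tercile 0 of 5 (against 13.4%). Within the longest tercile the exons still had a median of 10.6 kb in enzyme genes and 8.35 kb in the others, so length was not fully matched. The shares lower in D1 are a description with no test.

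Next, the effect of stress was examined within the IPs of each line. At an adjusted p under 0.05 (edgeR) no enzyme gene differed between Con, Res and Sus in D1 or D2 IPs, nor by DESeq2, and of all 14224 genes tested 0 passed in 5 of the 6 contrasts and 0.00703% in D1 Res against Con. At an unadjusted p under 0.05, 5 of 82 genes differed between D1 Sus and Con (against 5.34% of all genes), 2 between D1 Res and Con (2.11%) and 4 between D1 Sus and Res (4.23%). In D2 there were 2 for Sus against Con (3.68%), 2 for Res against Con (3.02%) and 1 for Sus against Res (1.66%). DESeq2 gave 4, 3 and 4 genes for these contrasts in D1 and 2, 2 and 1 in D2 at the unadjusted threshold (shares over all genes not given here). The genes are described below by their values, and the smallest adjusted p of any (edgeR) was 0.846.

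Chd9, a remodeller, differed at this threshold between D1 Sus and Con. Its level was 62.4, 64.1, 65 and 69.4 CPM in the 4 D1 Con libraries, 67.6, 68, 63.8 and 73.8 in D1 Res and 78.4, 76.2, 70.9, 76.9 and 86.7 in D1 Sus. Every Sus library lay above every Con library, with a log2 fold change of 0.26 ± 0.09 (edgeR unadjusted p = 0.00511), and the unadjusted call held when any 1 of the 28 libraries was left out. Sus lay above Res by 0.19 ± 0.09 (edgeR unadjusted p = 0.036), which was lost when any of 5 libraries was left out (edgeR unadjusted p = 0.108 without D1 Res 3). In D2 the Chd9 level was 68.6 to 88.6 CPM in Con, 72.6 to 90.1 in Res and 76.2 to 104 in Sus, with broad overlap.

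Kdm8, a JmjC-domain protein now known as an arginine hydroxylase, was low in all libraries. It stood at 4.79, 5.6, 3.85 and 5.15 CPM in D1 Con, at 6.52, 6.29, 6.37 and 6.22 in D1 Res and at 5.57, 5.98, 6.3, 6.57 and 5.69 in D1 Sus. All Res libraries and all Sus libraries but D1 Sus 1 exceeded every Con library, with log2 fold changes of 0.40 ± 0.13 for Res against Con (edgeR unadjusted p = 0.00494) and 0.32 ± 0.12 for Sus against Con (edgeR unadjusted p = 0.0153). Without D1 Con 3, the lowest library, the latter was 0.22 with an edgeR unadjusted p of 0.0911. In D2 Sus, Kdm8 was at 7.23, 6.94, 7.44, 5.62 and 7.4 CPM, against 5.47, 5.55, 5.84, 6.76 and 5.78 in D2 Con, which differed by 0.24 ± 0.12 on the log2 scale (edgeR unadjusted p = 0.0454) but no longer passed with 14 of the 28 libraries left out in turn.

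Smarcd3, the BAF subunit gene also known as Baf60c, was lower in D1 Sus. It was at 120, 113, 115 and 116 CPM in D1 Res and 108, 103, 105, 107 and 102 in D1 Sus, without overlap, a log2 fold change of -0.15 ± 0.05 (edgeR unadjusted p = 0.00852) that held with any 1 library left out. Against D1 Con, at 118, 114, 107 and 114 CPM, the log2 fold change of Sus was -0.11 ± 0.05 with an edgeR unadjusted p of 0.05, just inside the threshold and lost in 23 of 28 leave-one-out fits. Tet1 was lowest in D1 Res, at 9.69, 11.7, 10.7 and 12.1 CPM, against 11.6, 12.8, 13.5 and 14.9 in Con (log2 fold change -0.25 ± 0.11, edgeR unadjusted p = 0.0257) and 11.4, 12.1, 13.2, 14.5 and 12.9 in Sus (Sus against Res 0.22 ± 0.10, edgeR unadjusted p = 0.0422). These groups overlapped, and the Tet1 differences were lost in 4 and 5 leave-one-out fits, with an edgeR unadjusted p of 0.11 without D1 Con 4 and of 0.138 without D1 Res 1.

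Chd5 and Hdac9, both higher in D1 than in D2, were also higher in D1 Sus than in D1 Con at the unadjusted threshold. Chd5 was at 331, 397, 377 and 404 CPM in Con and 381, 393, 446, 434 and 441 in Sus, a log2 fold change of 0.16 ± 0.07 (edgeR unadjusted p = 0.025), and Hdac9 at 18, 26.5, 26.9 and 24 in Con and 26.2, 27.5, 29.3, 28.7 and 26.9 in Sus, one of 0.22 ± 0.09 (edgeR unadjusted p = 0.0253). In both genes the lowest library was D1 Con 1, without which the log2 fold change was 0.10 for Chd5 and 0.11 for Hdac9 (edgeR unadjusted p = 0.132 and 0.194). Kdm5d, a demethylase gene of the Y chromosome, was at 20.9, 8.25, 16 and 15.2 CPM in D1 Res and 20.5, 21.9, 16.6, 17.8 and 23.2 in D1 Sus (log2 fold change 0.40 ± 0.14, edgeR unadjusted p = 0.00901). The low value of 8.25 belonged to D1 Res 2, and without that library the log2 fold change was 0.21 with an edgeR unadjusted p of 0.0622, while without D1 Res 1 it was 0.60 (edgeR unadjusted p = 0.000128).

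In D2, Kdm6a, the X-linked demethylase UTX, was at 22.7, 26.5, 27, 26.4 and 26.2 CPM in Con and 29.4, 27.2, 28.5, 26.9 and 33.1 in Sus. The log2 fold change was 0.18 ± 0.07 (edgeR unadjusted p = 0.0134), and it was 0.12 with an edgeR unadjusted p of 0.0709 without D2 Sus 5. Smarcd2 was higher in D2 Res, at 8.97, 9.36, 8.28, 9.9 and 9.7 CPM against 8.49, 8.27, 7.81, 7.65 and 8.13 in Con (0.20 ± 0.08, edgeR unadjusted p = 0.0239, and 0.0628 without D2 Res 4). Hdac10 was lower in D2 Res, at 2.62 to 3.58 CPM against 3.31 to 5.03 in Con (-0.39 ± 0.19, edgeR unadjusted p = 0.049), and lost its call in 14 of 28 leave-one-out fits. Hdac6, the tubulin deacetylase, was at 64.2, 66.5, 64.8, 63.2 and 66 CPM in Sus and 58.1, 61.4, 61.9, 62.5 and 60.9 in Res (0.09 ± 0.04, edgeR unadjusted p = 0.0359), without overlap, and its unadjusted p in edgeR was 0.113 without D2 Res 1. Without the libraries numbered 5, none of these 4 genes nor Kdm8 kept an unadjusted p under 0.05 in D2, with edgeR values from 0.0725 to 0.151. In D1 the differences of Smarcd3 (Sus against Con), Chd9 and Tet1 (both Sus against Res) were lost as well (edgeR unadjusted p = 0.0604, 0.0509 and 0.0513).

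**Figure D5:**
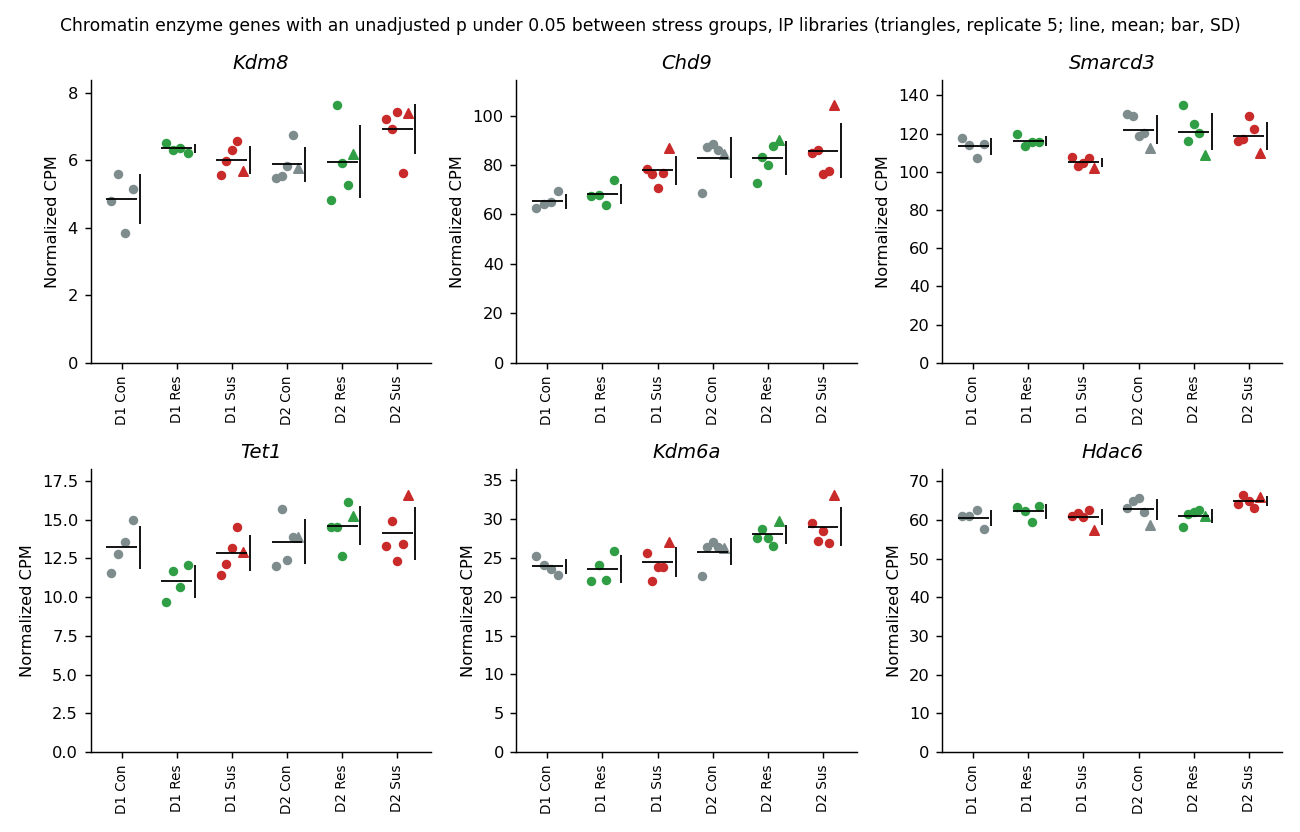
Level in normalized CPM of Kdm8, Chd9, Smarcd3, Tet1, Kdm6a and Hdac6 in each IP library by line and stress group, with triangles for replicate 5, a line at each mean and a bar for the SD. The 5 D1 Sus libraries lie above the 4 D1 Con libraries for Chd9 (70.9 to 86.7 against 62.4 to 69.4 CPM) and below the 4 D1 Res libraries for Smarcd3 (102 to 108 against 113 to 120 CPM).

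Single libraries decided several of these counts. The shares over all genes in these fits are not given here, so whether they moved too is not shown. The count for D1 Sus against Con was 9 without D1 Sus 3 and 3 without D1 Sus 5, that for D1 Res against Con 4 without D1 Con 1 or D1 Res 2 and 1 without D1 Con 3, and that for D1 Sus against Res 2 without D1 Res 1, D1 Res 3 or D1 Sus 5. In D2 the counts fell to 0 without D2 Con 4 or D2 Res 5 (Res against Con), without D2 Con 1 or D2 Sus 5 (Sus against Con) and without D2 Res 1 or D2 Sus 2 (Sus against Res), and rose to 4 (Res against Con, without D2 Con 5 or D2 Res 1), 4 (Sus against Con, without D2 Sus 4) and 3 (Sus against Res, without D2 Res 2, D2 Res 5, D2 Sus 3 or D2 Sus 4). A difference between D1 and D2 IPs in the stress effect was tested as an interaction, and no enzyme gene passed an adjusted p under 0.05 (edgeR, or DESeq2), nor did any of the 14224 genes. At an unadjusted p under 0.05 there were 0 genes for Sus against Con (against 1.82% of all genes), 5 for Res against Con (2.36%) and 3 for Sus against Res (2.03%). The 5 were Kdm1a, Tet1, Kdm5d, Kdm8 and Smarca5 and the 3 were Kdm5d, Hdac6 and Hdac5, named after their values were seen. DESeq2 found 5 different enzyme genes over the 3 interactions (shares over all genes not given here), where edgeR found 7.

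The same contrasts in the inputs, with 6 libraries a group over both lines, gave no gene at an adjusted p under 0.05 (edgeR, or DESeq2), nor did any of the 15063 genes tested. At an unadjusted p under 0.05, 8 of 83 genes differed between Sus and Con (against 4.51% of all genes), 0 between Res and Con (3.25%) and 7 between Sus and Res (5.47%). DESeq2 gave 7, 0 and 7 (shares over all genes not given here). Hdac10 was lower in Sus by a log2 fold change of -0.35 ± 0.10 against Res (edgeR unadjusted p = 0.00291) and of -0.25 ± 0.10 against Con (edgeR unadjusted p = 0.0259), with 7.08 to 10.6 CPM in Sus, 8.7 to 12.8 in Res and 9.3 to 10.8 in Con. Setd6 was lower in Sus than in Con (-0.27 ± 0.10, edgeR unadjusted p = 0.0132), at 9.6 to 12.8 CPM against 11 to 16. Kdm5c was higher in Sus than in Con by 0.08 ± 0.03 (edgeR unadjusted p = 0.0118), and Kmt2c, Chd7, Kat14, Chd9 and Kdm2a (the last named after its value was seen) by 0.07 to 0.12. Against Res, Kdm5d (0.21 ± 0.08), Chd7 (0.14 ± 0.05), Smarce1 (0.13 ± 0.05), Kat14 (0.10 ± 0.04), Kmt2c (0.08 ± 0.04) and Kdm5c (0.07 ± 0.03) were higher in Sus. The value of Kdm5d rested in part on D1 Res input 2, at 20.3 CPM against 27.6 to 33.9 in the other inputs, and was 0.13 without it (edgeR unadjusted p = 0.0165). Without scaling factors the 9 genes past the threshold for Sus against Con were all lower in Sus. The count for Sus against Con was 3 without D1 Sus input 1 and 5 without D1 Con input 2 or 3, D1 Sus input 2 or 3, D2 Con input 1, D2 Res input 2 or D2 Sus input 1, and that for Res against Con was 1 without D1 Con input 3.

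Between the lines, the inputs of the D1-Cre line differed from those of the D2-Cre line in 0 of 83 enzyme genes at an adjusted p under 0.05 (edgeR, or DESeq2), against 0.0199% of all genes. At an unadjusted p under 0.05 there were 2 (against 5.19%), Ehmt1 with a log2 fold change of D1 against D2 inputs of -0.09 ± 0.03 and Ehmt2 with one of 0.07 ± 0.03, named after their values were seen. DESeq2 also gave 2 (share over all genes not given here). Chd5 was at 283 to 377 CPM in D1 inputs and 304 to 354 in D2 inputs, and Chd7 at 29.3 to 34.8 and 28.2 to 35.3, so the ranges of the lines overlapped.

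Sirt1, a deacetylase of the sirtuin class and the gene named in the knockout label, was examined first in that comparison. Its level was 13.1, 16.6, 14.8 and 14.3 CPM in D1 Con and 15.1, 16.2, 13.2 and 10.2 in the libraries labelled Sirt1-KO, -0.10 ± 0.13 on the log2 scale (edgeR adjusted p = 0.768). The levels overlapped, and since the deleted exon is not given in the sources used here, this total over the gene does not check the label. No enzyme gene passed an adjusted p under 0.05 in edgeR (against 1.66% of all genes), while DESeq2 called 4. The share of all genes that DESeq2 called is not given here, so its count cannot be read as particular to the enzyme genes. At an unadjusted p under 0.05, 12 of 82 genes differed, 11 of them higher in the libraries labelled Sirt1-KO (against 17.3% of all genes, 9.15% higher). The 12 are named here after their values were seen.

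Chd5 had the smallest p, at 309, 371, 354 and 377 CPM in D1 Con and 405, 430, 460 and 424 in Sirt1-KO, without overlap (log2 fold change 0.29 ± 0.07, edgeR adjusted p = 0.0615). Kat6b, an acetyltransferase, was at 72.4, 67.3, 71.6 and 71.5 CPM and 76.7, 82.8, 81.9 and 86.8, also without overlap (0.22 ± 0.06, edgeR adjusted p = 0.0759). Hdac9 was at 16.9, 24.7, 25.3 and 22.4 CPM in D1 Con and 29.8, 35.8, 34.6 and 22.6 in Sirt1-KO (0.47 ± 0.15, edgeR adjusted p = 0.141), where D1 Con 1 was again low and the last Sirt1-KO library lay within the Con range. The others were Chd3, Dnmt1, Smarcd1, Kat8, Setd2, Smarcc2, Hdac1 and Kdm1a, with log2 fold changes of 0.13 to 0.23, and Setd6, with -0.20 ± 0.09. Without the Sirt1-KO library numbered 5, the edgeR test called 2 genes at an adjusted p under 0.05 (share over all genes not given here). Cell type markers differed between these libraries too. The 4 cortical excitatory markers summed to 806 to 1519 CPM in Sirt1-KO and 362 to 991 in D1 Con, and the 4 D1 markers to 899 to 1114 and 1193 to 1476. Their part in these differences was not tested.

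A list of 70 partner genes outside the naming rule, such as Polycomb, BAF and NuRD subunits, other acetyltransferases and reader proteins, was counted in the same fits. All 70 were found and tested in the IP and input models. Between IP and input, 59 passed an adjusted p under 0.05 (edgeR) in D1 (27 higher and 32 lower, against 81.9% of all genes). In D2 56 did (31 higher and 25 lower, against 82.7%). Between D1 and D2 IPs 39 passed (against 40.8% of all genes), 8 higher and 31 lower in D1 (against 19.6% and 21.3%). Among the 82 enzyme genes 4 were higher and 43 lower. In the D1 stress contrasts, 4 (Sus against Con), 0 (Res against Con) and 4 (Sus against Res) had an unadjusted p under 0.05 (edgeR). Over all genes the shares were 5.34%, 2.11% and 4.23%. In D2 there were 3, 4 and 1 (against 3.68%, 3.02% and 1.66%). In the inputs there were 8, 5 and 5 (against 4.51%, 3.25% and 5.47%). In edgeR, 0 passed the adjusted threshold between the inputs of the lines (against 0.0199% of all genes), and 1 had an unadjusted p under 0.05 (against 5.19%). In the libraries labelled Sirt1-KO, 0 of 69 passed the adjusted threshold (against 1.66%), and 7 had an unadjusted p under 0.05 (against 17.3%).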

How the data were processed

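RiboTag IP and input RNA of the NAc was sequenced from stranded poly-A libraries. Per the study's methods, the authors trimmed reads with cutadapt, aligned them to mm10 with STAR and made the deposited raw counts per gene with HTSeq (versions and the counting strand are not given in the sources used here). The 4 D1 Con libraries stand in the Sirt1-KO table too, with the same counts, and 2 columns that match no described sample were left out. Entries that name no gene (18.02% to 40.0% of reads) stayed out of library sizes.

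Counts were filtered with filterByExpr (minimum 10, total 15), scaled with TMM and tested with the quasi-likelihood test of edgeR 4.0.16 in R 4.3.3, with Benjamini-Hochberg adjustment over all genes tested. The IP and input libraries, the 28 IPs, the 18 inputs and the Sirt1-KO table were 4 separate models. DESeq2 1.42.0 served as an alternative, and the scripts were tested on simulated data. Exon lengths are unions of GENCODE exons on GRCm38. Replicates of a group differed by more than counting noise (chi-square per gene of 3.51 to 98.7 over 76 pairs), so depth alone does not set the precision. Replicate numbers were not used as pairs in the main models, since not every same-numbered pair deviated together and no label says what a number stands for. Same-numbered IP libraries had a mean correlation of 0.109, against -0.0275 for other numbers, so their independence was not shown.

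The enzyme genes, marker and partner lists were chosen with earlier results of these data known. Genes were named by rule: up to 8 per direction for IP against input (both lines), 10 for D1 against D2, 5 per stress contrast at an unadjusted p under 0.05, 8 for the input lines and the Sirt1-KO at an adjusted p under 0.05, the highest and lowest per family, and a set of genes often studied in the accumbens. Alternatives were other scaling, filters, DESeq2, a replicate block, fits to fewer libraries and each library left out. The fits without the libraries numbered 5 and with the share of reads outside genes as a covariate were chosen after seeing the data.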

Additional observations from a re-analysis of the deposited data

Results flagged for a closer look

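In 8 of 84 checks, each of 1 gene in 1 group of libraries, 1 library lay farther from the others than Dixon's limit allows. Chance alone gives about 1 in 20 such checks, but the checks share libraries and are not independent. Among the IPs, Kdm6a stood at 22.7 CPM in D2 Con 1 and at 26.2 to 27.03 in the other D2 Con libraries. Kdm8 was at 5.62 CPM in D2 Sus 4 against 6.94 to 7.44 in the others, and at 6.76 CPM in D2 Con 4 against 5.47 to 5.84. Kat14 was at 27.2 CPM in D1 Sus input 2 against 24.3 to 25.03 in the other Sus inputs, and Kdm5d at 31.4 CPM in D1 Sus input 1 against 33 to 33.9. Among D2 inputs, Chd4 was at 248 CPM in D2 Res input 3 against 265 to 278, Dnmt3b at 1.24 CPM in D2 Sus input 3 against 0.406 to 0.653, and Hdac2 at 66.9 CPM in D2 Sus input 1 against 73.2 to 79.4.

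Of the 16 genes named for the largest differences between IP and input, 7 differed between the lines when the D1 difference minus the D2 difference was itself tested in edgeR. Kdm4a gave -0.38 on the log2 scale (adjusted p = 0.000223), so its higher level in IP was smaller in D1, and Chd4 gave -0.17 (adjusted p = 0.00995). The genes lower in IP were lower still in D1, with -0.43 for Kmt2a, -0.45 for Tet2, -0.37 for Kat6a, -0.50 for Setd4 and -0.44 for Hdac7 (edgeR adjusted p = 0.0024, 0.00297, 0.00579, 0.00448 and 0.0369).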

How the results depend on the processing

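Between D1 and D2 IPs the count of 47 stayed at 38 to 49 under other scaling, filters, DESeq2, the replicate block (49), the covariate and without the libraries numbered 5. The share called over all genes was 28.4% to 44.5% under these settings. The count was 24 with Con libraries only (against 14% of all genes), 1 with a fold over 1.5 required (against 7.66%), and 45 to 50 with each library left out. The IP against input counts were 67 to 71 in D1 and 69 to 73 in D2 with each library left out. The genes named for the largest differences between IP and input kept their calls in both lines under every other setting. These settings included a block for an IP and an input of the same line, stress group and number. The count of genes with that block is not given here. For stress, a single library left out gave 3 to 9 genes for D1 Sus against Con, 1 to 4 for D1 Res against Con, 2 to 5 for D1 Sus against Res, 0 to 4 for D2 Sus against Con and for D2 Res against Con, 0 to 3 for D2 Sus against Res, 3 to 11 for input Sus against Con, 5 to 10 for input Sus against Res and 0 to 1 for input Res against Con. It gave 0 to 2 for the Sirt1-KO.

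With only the libraries compared, D1 Sus against Con had 9 genes and D2 Sus against Res 0. D2 Sus against Con had 5 genes with no scaling, 1 with every gene of at least 1 count, 4 with the replicate block, 1 without the libraries numbered 5 and 7 with the covariate. D2 Res against Con had 4 with no scaling, 1 at a mean of at least 50 counts, 1 with the replicate block, 1 without the libraries numbered 5 and 4 with the covariate. D2 Sus against Res had 0 with no scaling, 0 with every gene, 3 with the replicate block and 3 without the libraries numbered 5. Inputs had 2 genes for Res against Con and 2 for Sus against Res with no scaling, and 5 for Sus against Con and 4 for Sus against Res with every gene. The Sirt1-KO count of 0 at an adjusted p under 0.05 was 1 with every gene, 4 with DESeq2, 3 with the replicate block and 3 with the covariate. The shares over all genes are not given here for these fits, nor for those with 1 library left out. The counts therefore cannot be read as particular to the enzyme genes. The cause of the changes in count was not tested. No named gene past its threshold changed direction under these settings, but the group's median, close to 0 for IP against input (0.03 in D1 and 0.07 in D2), turned to -0.17 and -0.05 with no scaling and to -0.06 in D1 at a mean of at least 50 counts. Same-numbered IP libraries deviated together (correlation over 0.1) in 38 of 66 pairs, with a mean correlation of 0.109, against 53 of 260 pairs with other numbers and a mean of -0.0275. An IP and the input of its line, stress group and number deviated together in 9 of 18 pairs (mean correlation 0.0788). With other numbers it was 19 of 66 pairs (mean -0.0205). Not every same-numbered pair deviated together, and no label says what a number stands for, so the replicate block was kept as an alternative, and whether a number marks something shared remains unknown. Expression near 1 CPM, as for Dnmt3b, limits what these depths can show.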

Other observations

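The Y-linked demethylase gene Kdm5d was low in both libraries of 1 number, which was noticed after the values were seen. It stood at 8.25 CPM in the D1 Res 2 IP against 15.2 to 23.6 in the 27 other IPs, and at 20.3 CPM in the D1 Res 2 input against 27.6 to 33.9 in the 17 other inputs. Eif2s3y, another gene of the Y chromosome, was at 10.02 CPM in that IP against 19.6 to 33.2, and at 32.9 CPM in that input against 33.1 to 47.4. Uty was at 13.4 CPM in the IP, within the 8.53 to 14.6 of the others, and at 13.6 CPM in the input against 13.8 to 21.7. Ddx3y was at 67.3 CPM in the IP, within 40.4 to 79.4, and at 36.1 CPM in the input against 44.1 to 59.3.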
